A study of Mus musculus with 6 samples.

Results

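Amino acids cross the plasma membrane and the membranes of lysosomes through carriers of several solute carrier (Slc) families, and 6 of these families are described here. The members were all protein-coding genes of the count table whose mouse symbol begins with Slc1a, Slc3a, Slc7a, Slc36a, Slc38a or Slc43a followed by a number. This gave 43 genes of 49315 in the table. One of them, Slc7a6os, carries the name of its neighbour Slc7a6 but is not a transporter gene, which leaves 42 genes of the transporter families proper. The members were compared between 3 libraries of TKO (triple knockout) mouse ovarian cancer cells that lack MNRR1 (KO) and 3 libraries of the same line with MNRR1 intact (WT). MNRR1 is the product of Chchd2 and acts in mitochondria and in the nucleus. Both groups carry the background of the TKO line, whose knocked-out genes the labels do not name. The KO libraries bear a single clone name, so clone and knockout cannot be told apart. The labels do not say that replicates were separate cultures, so each p-value reflects the spread among these libraries alone, and that spread may be technical.

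Slc1 carriers couple uptake to sodium and take acidic amino acids (the excitatory amino acid transporters) or small neutral ones. Slc7 carriers are exchangers and cationic amino acid transporters, and several of the exchangers reach the membrane only when bound to a heavy chain encoded by Slc3a1 or Slc3a2. Slc38 carriers move glutamine, alanine and other neutral amino acids, Slc36 carriers include proton-driven ones, and Slc43 carriers include transporters of large neutral amino acids. In growing tumour cells these families supply glutamine, leucine, cystine and arginine. Several of their genes are known targets of ATF4, the transcription factor that is made when cells sense a shortage of amino acids.

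Total counts ran from 33226463 to 40983999 per library. Chchd2 was at 17.1 ± 0.499 CPM in KO libraries, against 352 ± 13.7 CPM in WT libraries (SD, n = 3 each). Levels are CPM (counts scaled to a common library total) with TMM (trimmed mean of M values) factors. The ovarian surface marker Wt1 was at 669 to 686 CPM in KO libraries, against 696 to 759 CPM in WT libraries, and the Mullerian marker Pax8 was nearly absent, with 3 counts in KO and 34 in WT libraries. Of 10 ovarian epithelial markers, 9 were tested. In KO cells 2 of these (Krt19 and Muc16) rose and 4 fell, where 27.8% of all tested genes were called in each direction. Those that fell were the keratin genes Krt7 (log2 change -1.88, 81.3 CPM in KO cells, against 299 CPM in WT cells), Krt8 (-0.76) and Krt18 (-0.55) and the mesothelin gene Msln (-1.38, 108 CPM in KO cells, against 281 CPM in WT cells). The epithelial adhesion genes Epcam (278 counts in KO and 248 in WT libraries) and Cdh1 (54 in KO and 63 in WT) were low in both. The 6 immune markers summed to 0.393 to 0.490 CPM in KO cells, against 1.16 to 2.36 CPM in WT cells, with Cd3e at 0 in both. The 4 endothelial markers summed to 2.70 to 3.64 CPM in KO cells, against 5.69 to 6.20 CPM in WT cells, with Kdr lower (1.13 CPM in KO and 5.35 CPM in WT) and Tek higher in KO (1.68 CPM in KO and 0.287 CPM in WT). The 5 fibroblast markers summed to 457 to 495 CPM in KO cells, against 619 to 658 CPM in WT cells, nearly all of it Dcn (437 to 480 CPM in KO cells, against 481 to 517 CPM in WT cells) and, in WT, Col1a1. Thy1, another fibroblast marker, had 0 counts in KO and 246 counts in WT libraries. Both groups are cells of the same line, but bulk counts do not show whether a marker differed in all cells or in some. The part of these markers in the results below was not tested.

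Short promoter stretches are shown for 5 members, because they hold a motif named for a factor of amino acid shortage or of lysosome genes. RefSeq promoters of GRCm38.p6, 250 bases before to 50 after each start, were found for 32 of the 43 members. The other 11 were not searched: Slc1a5, Slc7a2, Slc7a3, Slc7a4, Slc7a5, Slc7a12, Slc7a13, Slc36a2, Slc38a1, Slc38a3 and Slc43a3. The C/EBP-ATF response element (CARE), which ATF4 binds with a partner, was searched on both strands as TGATGNAA. It was found in 3 of the 32 members and in 3.97% of all 32851 promoters. The E-box CACGTG, bound by TFEB, TFE3 and MYC among others, reads the same on both strands. It was found in 7 of the 32 members and in 7.15% of all promoters. For both motifs, members were counted as genes over all their starts and the background as single promoters, so the shares are not directly comparable. Capitals mark the motif matches, and each stretch is written 5′ to 3′ on the strand of its gene, at positions chr3:50443614-50443713 (minus strand) for Slc7a11, chr11:20332710-20332783 (minus) for Slc1a4, chr14:54417938-54418094 (minus) for Slc7a7, chr8:95853492-95853561 (minus) for Slc38a7 and chr11:55204270-55204343 (plus) for Slc36a1.
Slc7a11: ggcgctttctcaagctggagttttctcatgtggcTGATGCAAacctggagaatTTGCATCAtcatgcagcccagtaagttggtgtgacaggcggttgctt
Slc1a4: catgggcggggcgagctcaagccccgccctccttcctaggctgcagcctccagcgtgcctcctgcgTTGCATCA
Slc7a7: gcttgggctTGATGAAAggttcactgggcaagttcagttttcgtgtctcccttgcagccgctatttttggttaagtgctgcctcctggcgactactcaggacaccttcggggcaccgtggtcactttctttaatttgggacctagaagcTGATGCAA
Slc38a7: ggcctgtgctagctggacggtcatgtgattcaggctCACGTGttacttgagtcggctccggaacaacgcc
Slc36a1: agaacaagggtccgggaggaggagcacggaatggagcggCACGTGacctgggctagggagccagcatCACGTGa
Slc7a11 held a pair of CARE matches on opposite strands, at positions -66 to -59 and -47 to -40 from the start. The CARE match of Slc1a4 lay across its start, and Slc7a7 held a match at -141 to -134 and another across the same start, one of 5 starts of this gene in the table. As the levels below show, Slc7a11 and Slc1a4 rose in KO cells while Slc7a7 fell, so a match went with both directions. E-boxes were also found in Slc43a1, which fell, and in Slc1a6, Slc1a7, Slc38a5 and Slc7a14, which had 4 counts or fewer in all libraries together. A match is a string of letters in this window and no evidence of binding.

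Of the 43 members, 28 passed the filter on low counts and were tested, and 13 of these rose and 9 fell in KO cells at an adjusted p under 0.05 in edgeR's quasi-likelihood test with Benjamini-Hochberg (BH) adjustment over all 16033 tested genes. With scaling by library totals 14 rose and 6 fell. Over all tested genes, 55.7% were called, 27.8% higher and 27.8% lower. The members' shares were 78.6% called, 46.4% higher and 32.1% lower, but these libraries call abundant genes more often: 66.3% of all genes that averaged at least 10 CPM were called, against 17 of 19 members of that level. The median log2 change was 0.22 over the tested members and 0.01 over all tested genes. Changes were mostly small, and 13 of the 22 called members changed less than 2-fold. A rise of at least 2-fold was called for 4 members, where 8.1% of all genes had one, and a fall of at least 2-fold for 5 members, where 6.01% of all genes had one. In 23 of the 28 tested members the genotypes did not overlap, against 64% of all tested genes. That share was not computed for abundant genes alone. An exact permutation test of 3 against 3 libraries cannot go below p = 0.1, so calls rest on the fit across all genes.

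**Figure D1:**
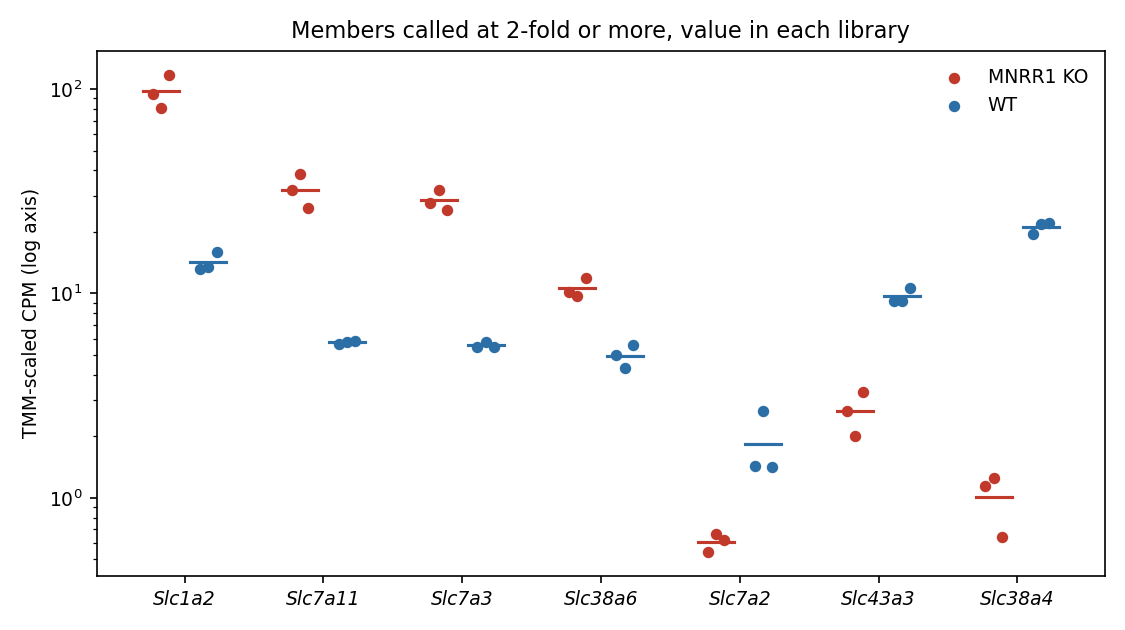
TMM-scaled CPM (log axis) of the 7 members called at 2-fold or more with at least 1 CPM in the higher genotype, one point per library and a line at the mean, KO left of WT. KO and WT points do not overlap for any of the 7, with Slc1a2, Slc7a11, Slc7a3 and Slc38a6 higher in KO and Slc7a2, Slc43a3 and Slc38a4 lower.

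Glutamate and aspartate transport. Of the 6 genes of acidic amino acid carriers, Slc1a2 was the one called. Slc1a2 encodes a high-affinity glutamate transporter best known from astrocytes (ENSMUSG00000005089, GRCm38 chromosome 2, positions 102658659 to 102790784, plus strand). It was at 94.6, 80.8 and 118 CPM in KO replicates 1 to 3, against 13.1, 13.5 and 15.9 CPM in WT replicates 1 to 3. Every KO library lay at least 5 times as high as every WT library. The log2 change was 2.78 (SE 0.14), with an edgeR adjusted p of 1.04e-06. Slc1a3, the other glial-type glutamate transporter gene, was at 34.7 ± 4.92 CPM in KO cells, against 29.5 ± 2.17 CPM in WT cells (SD, n = 3 each), with groups that overlapped and an edgeR adjusted p of 0.0757. That p was 0.00221 without KO replicate 3, where the log2 change was 0.34 in place of 0.23, and Slc1a3 was also called higher with upper quartiles (0.0387), library totals (0.0121) or no filter (0.0209). The neuronal-type genes Slc1a1 and Slc1a6, the retinal Slc1a7 and the kidney carrier gene Slc7a13 had 4 counts or fewer over all 6 libraries.

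With these levels the make-up of the class differed between genotypes. Per kb of exon, Slc1a2 made up 62.7%, 57.7% and 72.4% of the summed level of acidic carriers in KO libraries and 23.8%, 22.7% and 24.6% in WT libraries, and Slc1a3 nearly all of the rest. Which gene was the larger part in KO libraries depends on the gene length used. With the longest transcript in place of all exons the mean share of Slc1a2 was 51.7% in KO and 15.5% in WT libraries.

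Cystine, and the heavy chains. Slc7a11 encodes the light chain xCT, which brings in cystine in exchange for glutamate and so feeds glutathione synthesis (ENSMUSG00000027737, chromosome 3, positions 49892526 to 50443614, minus strand). Its values were 31.9, 38.4 and 26.2 CPM in KO libraries, against 5.66, 5.79 and 5.82 CPM in WT libraries. The WT values were nearly identical, and the KO values were all above 4 times the highest of them. The log2 change was 2.48 (SE 0.13, edgeR adjusted p = 3.21e-07). KO replicate 2, the library with the highest Slc7a11, was also the highest KO library for Slc3a2, Slc7a5, Slc7a1 and Slc7a3, and for Slc38a1 and Slc38a2. Among the KO libraries it was the lowest for Slc1a2, Slc1a5 and Slc36a1, so the order of libraries differed between members.

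Slc3a2 encodes 4F2hc (CD98), the heavy chain that xCT and the light chains of systems L and y+L need at the surface. It was at 259, 270 and 236 CPM in KO libraries, against 191, 182 and 214 CPM in WT libraries, so the groups did not overlap although WT replicate 3 came near KO replicate 3. It rose by 0.38 (SE 0.07) on the log2 scale, with an edgeR adjusted p of 8.91e-04. Slc3a1, the rBAT heavy chain gene of kidney and gut, was at 0.344, 0.368 and 0.180 CPM in KO and 0.286, 0.384 and 0.428 CPM in WT libraries, with overlapping groups and an edgeR adjusted p of 0.544. Its exons overlap those of Prepl on the opposite strand by 601 bases, and Prepl had 3964 counts in KO and 3040 in WT libraries. The strand setting of the counting is unknown here, so the few Slc3a1 reads cannot be told apart from reads of Prepl.

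The 6 light chain genes that pair with Slc3a2 summed to 94.8 ± 7.45 CPM per kb of exon in KO and 88.5 ± 2.27 CPM per kb in WT libraries (SD, n = 3 each), an exact two-sided permutation p of 0.2. Slc7a5 and Slc7a6 made up nearly all of that sum in both genotypes. Slc7a11 made up 2.47%, 2.68% and 2.12% of it in KO libraries and 0.465%, 0.456% and 0.481% in WT libraries, an exact two-sided permutation p of 0.1, the smallest possible. Without division by length its mean share was 7.95% in KO and 1.59% in WT libraries. The gene with the greatest fold rise among light chains was therefore still a minor one by level. The level of Slc3a2 over the summed level of its light chains was 0.790, 0.743 and 0.756 in KO libraries and 0.619, 0.566 and 0.698 in WT libraries (exact permutation p = 0.1).

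**Figure D2:**
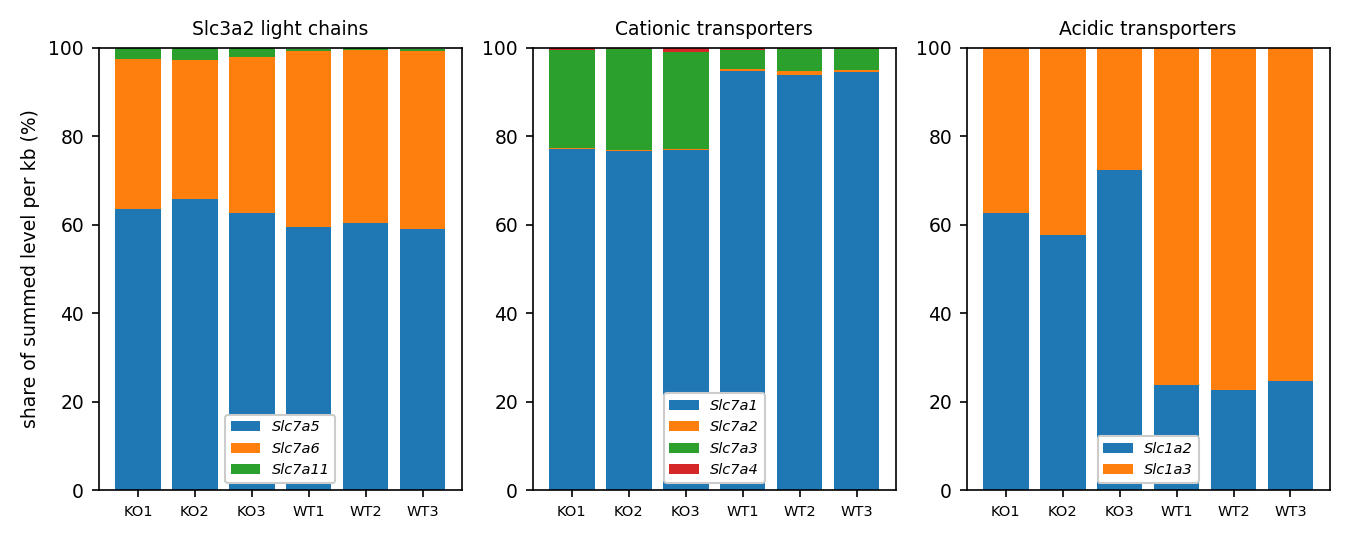
Share (%) of the summed level per kb of exon held by each gene in each library, KO libraries left of WT libraries, for Slc3a2 light chains, cationic carriers and acidic carriers; genes under 0.3% in both genotypes are not drawn. Slc1a2 and Slc7a3 take larger shares of their classes in KO libraries, while Slc7a5 and Slc7a6 dominate the light chains in both genotypes.

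Small neutral amino acids. Slc1a5 encodes ASCT2, a main glutamine importer of tumour cells, and Slc1a4 the related ASCT1, a carrier of serine, alanine and cysteine. Slc1a5 was at 173, 165 and 182 CPM in KO libraries, against 127, 126 and 130 CPM in WT libraries. Slc1a4 was at 42.8, 42.0 and 39.9 CPM in KO libraries, against 31.0, 29.5 and 29.5 CPM in WT libraries. Both genes had tight groups that did not overlap, and rose by 0.44 (SE 0.05) and 0.47 (SE 0.06) on the log2 scale at edgeR adjusted p of 4.45e-05 and 8.93e-05. Slc7a10 and Slc7a12, light chain genes for small neutral amino acids in brain and kidney, had 0 and 2 counts over the 6 libraries.

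Large neutral amino acids. Slc7a5 encodes LAT1, the main route of leucine and other large neutral amino acids into tumour cells. It was at 218, 252 and 206 CPM in KO libraries, against 193, 204 and 190 CPM in WT libraries. The lowest KO value lay just above the highest WT value, and the rise of 0.20 (SE 0.07) on the log2 scale passed narrowly (edgeR adjusted p = 0.0320). Leaving out any WT library ended that call, at edgeR adjusted p of 0.112 (replicate 1), 0.0553 (replicate 2) and 0.120 (replicate 3), and so did leaving out KO replicate 1 (0.0571). Slc7a8, the gene of LAT2, was close to silent with 10 counts in KO and 28 in WT libraries. Of the sodium-independent uniporter genes, Slc43a1 (LAT3) fell at a very low level, with 11 counts in KO and 48 in WT libraries (log2 change -2.17, SE 0.46, edgeR adjusted p = 0.00210). Slc43a2 (LAT4) was at 7.91 ± 0.511 CPM in KO cells, against 8.62 ± 0.708 CPM in WT cells, and its adjusted p in edgeR was 0.367.

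Cationic amino acids. Among the carriers of arginine, lysine and ornithine, Slc7a3 rose while Slc7a1 and Slc7a2 fell. Slc7a3 encodes CAT3, a carrier found mainly in brain and embryo (ENSMUSG00000031297, chromosome X, positions 101079210 to 101086020, minus strand). It was at 27.8, 32.1 and 25.7 CPM in KO libraries, against 5.46, 5.79 and 5.44 CPM in WT libraries. The KO values were all more than 4 times as high as the WT values, and the log2 change was 2.36 (SE 0.10, edgeR adjusted p = 5.14e-08).

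Slc7a1, the gene of the widespread carrier CAT1, was at 294, 328 and 274 CPM in KO libraries, against 358, 344 and 337 CPM in WT libraries. Its groups did not overlap, with KO replicate 2 close to the WT range, and it fell by 0.21 (SE 0.07) on the log2 scale (edgeR adjusted p = 0.0183). This call was lost with scaling by upper quartiles (adjusted p = 0.0532) or library totals (0.173) and without KO replicate 1 (0.0766), WT replicate 1 (0.0805) or WT replicate 2 (0.0554). Slc7a2, the gene of CAT2, which is induced in macrophages and liver, was at 0.544, 0.663 and 0.619 CPM in KO libraries, against 1.43, 2.66 and 1.41 CPM in WT libraries. WT replicate 2 stood above the other WT libraries. It also had the highest summed immune marker level (2.36 CPM), and a link between that level and Slc7a2 was not tested. The log2 change of Slc7a2 was -1.57 (SE 0.30, edgeR adjusted p = 0.00116) and was -1.22 without WT replicate 2. Slc7a4, a relative with no established substrate, was at 0.751 ± 0.315 CPM in KO cells, against 0.509 ± 0.0597 CPM in WT cells (edgeR adjusted p = 0.196), and Slc7a14, a relative in lysosomes, had 1 count in all. The exons of Slc7a4 overlap those of P2rx6 on the opposite strand by 554 bases, and P2rx6 had 26 counts in KO and 4 in WT libraries.

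The summed level of cationic carriers was 33.7 ± 3.19 CPM per kb of exon in KO and 31.8 ± 0.926 CPM per kb in WT libraries. Within it Slc7a3 took 22.3%, 22.8% and 22.0% in KO libraries and 4.41%, 4.81% and 4.65% in WT libraries. Slc7a1 took nearly all of the rest and remained the most abundant of the class in each of the 6 libraries.

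The exchangers of cationic for neutral amino acids also pair with a heavy chain. Of these 3 genes 2 were tested and called lower, where 27.8% of all tested genes were called lower. Slc7a6 (y+LAT2) was at 144, 148 and 142 CPM in KO libraries, against 160, 162 and 160 CPM in WT libraries, a small fall of 0.15 on the log2 scale (SE 0.05, edgeR adjusted p = 0.0173). That call was lost with scaling by upper quartiles (adjusted p = 0.0855) or library totals (0.576) and without KO replicate 1 (0.0720), WT replicate 1 (0.0553) or WT replicate 2 (0.0708). Slc7a7 (y+LAT1), a gene of gut, kidney and macrophages, had 5 counts in KO and 39 in WT libraries. Its log2 change was -2.94 (SE 0.56, edgeR adjusted p = 0.00102), and -3.67 without KO replicate 1. The exons of Slc7a7 overlap those of Oxa1l on the other strand by 232 bases. Oxa1l had 7403 counts in KO and 7209 in WT libraries and was not called (log2 change -0.04). Slc7a9, which pairs with rBAT in kidney, had 6 counts in KO and 1 in WT libraries and was not tested.

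**Figure D3:**
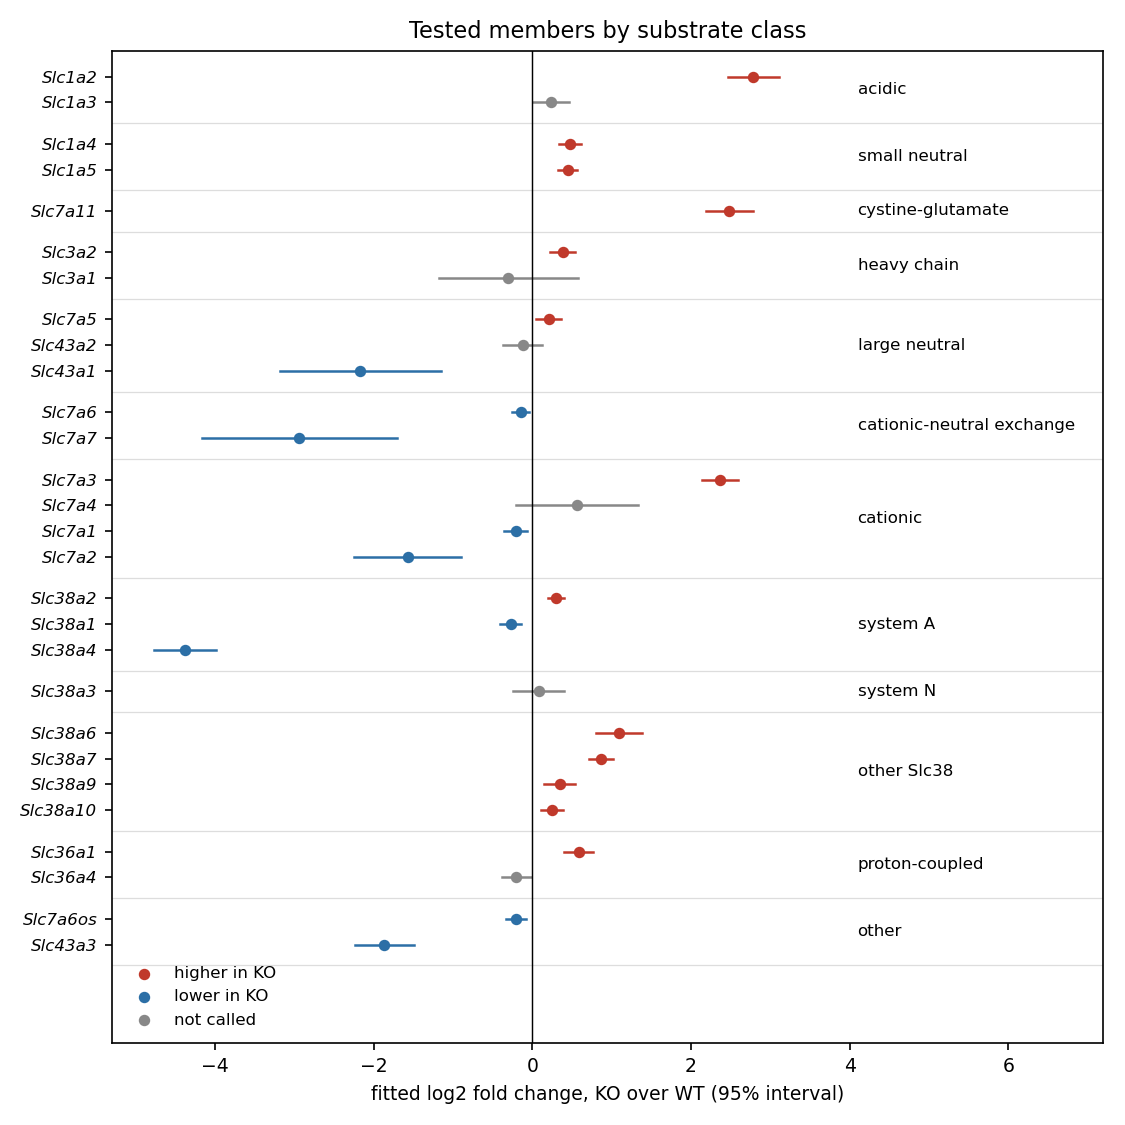
Fitted log2 fold change, KO over WT, of the 28 tested members with 95% intervals, grouped by substrate class. Members of 1 class often lie on both sides of 0, as in the cationic class and system A. The 4 tested genes labelled other Slc38 all lie above 0, where 27.8% of all tested genes were called higher.

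Glutamine and alanine through system A. The 3 system A genes, Slc38a1, Slc38a2 and Slc38a4, lie next to each other on chromosome 15. All 3 were called, 1 higher and 2 lower, where 55.7% of all tested genes were called in either direction. Slc38a2 encodes SNAT2, whose synthesis is known to respond to amino acid shortage and to osmotic stress (ENSMUSG00000022462, positions 96687392 to 96699730, minus strand). It was at 455, 461 and 440 CPM in KO libraries, against 367, 364 and 373 CPM in WT libraries. All KO values were above all WT values, and the rise was 0.30 (SE 0.05) on the log2 scale (edgeR adjusted p = 3.50e-04). Slc38a1 (SNAT1) was at 165, 178 and 157 CPM in KO libraries, against 211, 199 and 197 CPM in WT libraries. It fell by 0.28 (SE 0.06) on the log2 scale (edgeR adjusted p = 0.00207).

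Slc38a4 encodes SNAT4, a liver and placenta carrier whose gene is imprinted in the mouse and expressed from the paternal copy (ENSMUSG00000022464, positions 96994820 to 97055956, minus strand). It was at 1.15, 1.25 and 0.645 CPM in KO libraries, against 19.6, 21.8 and 22.1 CPM in WT libraries. No KO library came within 10 times of a WT library, and with a log2 change of -4.38 (SE 0.18, edgeR adjusted p = 3.04e-08) this was the largest change of any tested member. These values rest on 40, 51 and 25 counts in KO libraries, against 684, 738 and 876 counts in WT libraries. Slc38a4 took 0.387% of the summed system A level per kb in KO libraries and 8.51% in WT libraries, while Slc38a2 took 83.8% in KO and 71.4% in WT libraries.

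The distance between Slc38a1 and Slc38a2 is 44.5 kb and that between Slc38a2 and Slc38a4 is 295 kb, with no other tested gene between them. Beyond Slc38a1, Scaf11 and Arid2 were at log2 changes of -0.16 and 0.28. A deep fall was seen at Slc38a4 and at no other tested gene within 500 kb of the Slc38a2 start. Slc38a4, 356 kb from that start, was the only tested gene on its side. Genes beyond the window were not examined, so how far the fall extends on that side is not known. Slc43a1 and Slc43a3 on chromosome 2, 73.0 kb apart with the tested gene Rtn4rl2 between them, were both called lower, as were Slc7a6 and Slc7a6os on chromosome 8, 2.01 kb apart.

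**Figure D4:**
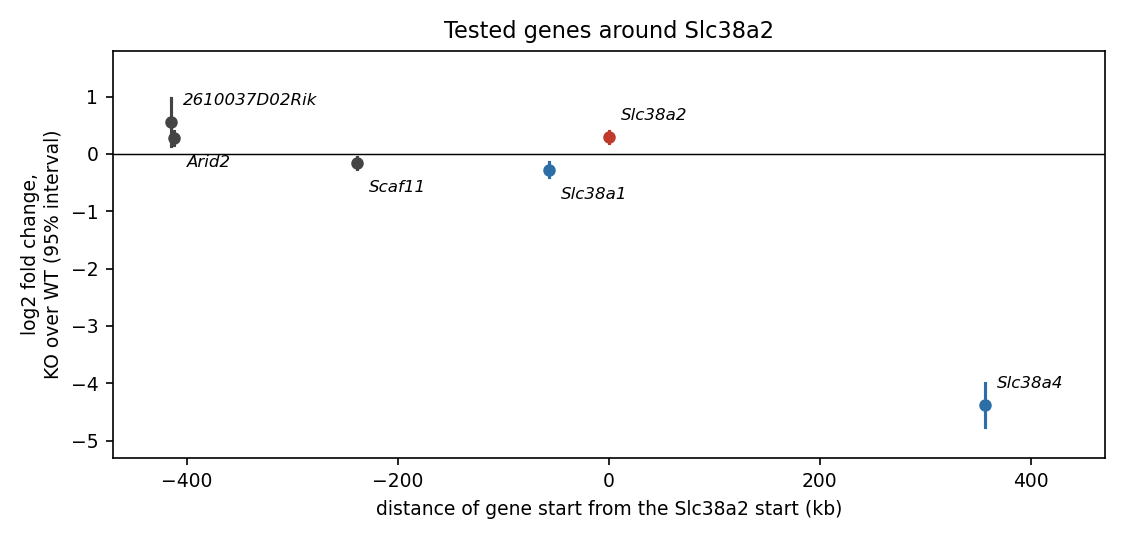
Log2 fold change, KO over WT, with 95% intervals of tested genes within 500 kb of the Slc38a2 start, by distance of their starts in kb. Slc38a1, Slc38a2 and their other neighbours lie within 1 log2 unit of 0. Slc38a4, the only tested gene on its side of Slc38a2, is at -4.38.

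System N and the remaining Slc38 genes. Slc38a3 (SNAT3), which moves glutamine in either direction, was at 9.70, 7.64 and 9.36 CPM in KO libraries, against 6.78, 9.12 and 9.35 CPM in WT libraries. The groups overlapped, and the 95% interval of its log2 change ran from -0.24 to 0.40. Slc38a5, the other system N gene, had 0 counts in all libraries, which allows up to 3 counts in a library (0.0737 to 0.0886 CPM, counting error only). Of the other 6 Slc38 genes 4 were tested. These were all called higher, where 27.8% of all tested genes were called higher. Of all genes of at least 10 CPM, 66.3% were called in either direction.

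Slc38a6, whose substrate is not settled, was at 10.1, 9.73 and 11.9 CPM in KO libraries, against 4.98, 4.31 and 5.57 CPM in WT libraries. Its groups were well apart, and the rise was 1.09 (SE 0.13) on the log2 scale (edgeR adjusted p = 5.36e-05). Slc38a7 encodes SNAT7, which exports glutamine from lysosomes, and was at 38.9, 40.4 and 40.9 CPM in KO libraries, against 20.9, 21.3 and 23.8 CPM in WT libraries. Each KO value was above 1.5 times the highest WT value (log2 change 0.86, SE 0.07, edgeR adjusted p = 3.90e-06). Slc38a9, the lysosomal arginine sensor that acts on mTORC1, was at 18.4 ± 1.43 CPM in KO cells, against 14.5 ± 0.859 CPM in WT cells and rose by 0.34 (edgeR adjusted p = 0.00701).

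Slc38a10, the most abundant of this class per kb of exon, was at 125, 112 and 128 CPM in KO libraries, against 100.3, 107 and 99.9 CPM in WT libraries, and rose by 0.25 on the log2 scale (edgeR adjusted p = 0.00552). Its groups were close, with KO replicate 2 the lowest of the KO libraries. Slc38a8, a carrier of the eye, had 3 counts in KO and 6 in WT libraries, and Slc38a11 had none.

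Proton-coupled carriers. Slc36a1 encodes PAT1, which exports small amino acids from lysosomes and acts in growth signalling. It was at 51.9, 47.5 and 59.0 CPM in KO libraries, against 34.9, 33.4 and 37.4 CPM in WT libraries. The KO values were all higher, and the rise was 0.58 (SE 0.08) on the log2 scale (edgeR adjusted p = 1.54e-04). Slc36a4 (PAT4), a carrier of proline and tryptophan, was at 27.3, 22.3 and 24.0 CPM in KO libraries, against 28.5, 28.0 and 28.2 CPM in WT libraries. These groups did not overlap either, but Slc36a4 stayed just short of the threshold (log2 change -0.20, edgeR adjusted p = 0.0528). It was called lower under 5 alternatives, among them limma voom (adjusted p = 0.0476) and the omission of KO replicate 1 (0.0171). Slc36a2 and Slc36a3, which lie beside Slc36a1 on chromosome 11 and act in kidney and testis, had 5 and 0 counts in all.

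Other transporter genes of lysosomes, chosen after their values were seen, went both ways. Ctns, the gene of the lysosomal cystine exporter cystinosin, was at 23.0 ± 2.84 CPM in KO cells, against 11.0 ± 1.35 CPM in WT cells (SD, n = 3 each) and rose by 1.06 (edgeR adjusted p = 2.65e-05). Slc66a1, which exports cationic amino acids from lysosomes, rose by 0.55 (edgeR adjusted p = 6.36e-04). Mfsd12, of a lysosomal cysteine importer, fell by 0.32 (edgeR adjusted p = 0.00478), and Slc15a4, of a lysosomal histidine and peptide carrier, by 0.23 (edgeR adjusted p = 0.0193). Of the factors that bind E-boxes of lysosome genes, Tfe3 rose by 0.56 on the log2 scale (edgeR adjusted p = 8.44e-05), while Tfeb was at 54.3 ± 5.70 CPM in KO cells, against 54.5 ± 2.75 CPM in WT cells (edgeR adjusted p = 0.969).

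Remaining members. Slc43a3, which carries adenine and other purine bases rather than amino acids, was at 2.66, 2.01 and 3.30 CPM in KO libraries, against 9.18, 9.21 and 10.6 CPM in WT libraries. The highest KO value was under 0.4 of the lowest WT value (log2 change -1.87, SE 0.17, edgeR adjusted p = 7.87e-06). Slc7a6os, which is involved in bringing RNA polymerase II into the nucleus in yeast, was at 52.9, 54.3 and 51.8 CPM in KO libraries, against 61.1, 58.7 and 63.9 CPM in WT libraries. It lay lower in all KO libraries (log2 change -0.21, SE 0.06, edgeR adjusted p = 0.00901), and the call was lost with scaling by library totals (adjusted p = 0.203). Slc7a15, the gene of an amino acid carrier that prefers aromatic substrates, had 16 counts in KO and 4 in WT libraries and was not tested.

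By summed level per kb of exon, the heavy chains, large neutral carriers, system A and small neutral carriers were the most abundant classes in both genotypes. All members together summed to 385, 398 and 374 CPM per kb in KO libraries and 327, 327 and 335 CPM per kb in WT libraries (exact two-sided permutation p = 0.1). The small neutral class had 52.2 ± 1.78 CPM per kb in KO and 38.2 ± 0.518 CPM per kb in WT libraries, and the other Slc38 genes 31.1 ± 1.52 CPM per kb in KO and 22.8 ± 0.518 CPM per kb in WT libraries. For the acidic class the values were 11.5 ± 0.859 CPM per kb in KO and 4.55 ± 0.363 CPM per kb in WT libraries. In system A the genes that rose and fell nearly offset each other, at 61.1 ± 1.88 CPM per kb in KO and 58.3 ± 0.517 CPM per kb in WT libraries.

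**Figure D5:**
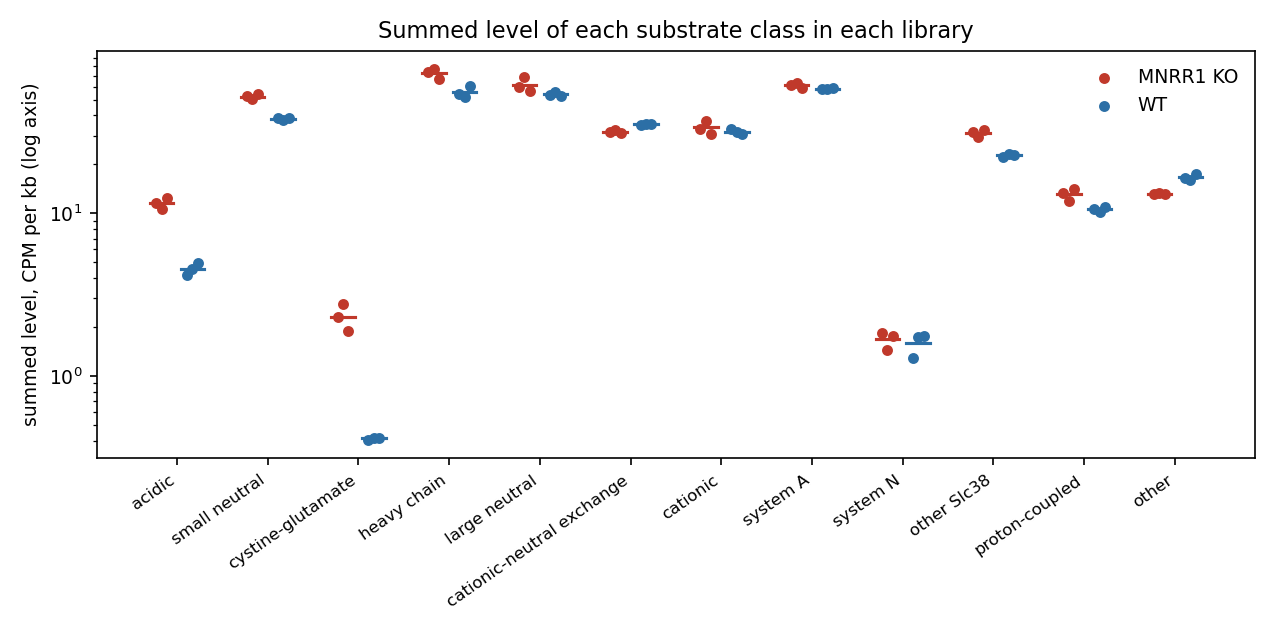
Summed level (CPM per kb of exon, log axis) of each substrate class in each library, one point per library and a line at the mean, KO left of WT. The acidic class (11.5 in KO and 4.55 in WT) and the cystine-glutamate carrier (2.31 in KO and 0.413 in WT) stand farthest apart, while system A, system N and the cationic class lie close together.

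Genes around these carriers went in several directions. In the list of other amino acid and peptide transporters, 11 of 23 genes were tested. Here 4 rose and 4 fell, and the median of their log2 changes was 0.04. Slc6a9, the glycine transporter GlyT1, was at 39.5 ± 1.27 CPM in KO cells, against 11.4 ± 0.909 CPM in WT cells, a rise of 1.79 on the log2 scale (edgeR adjusted p = 5.24e-08). Of 31 genes of amino acid sensing upstream of mTORC1, 16 rose and 7 fell, with a median of 0.18. Of all tested genes 27.8% were called in each direction, and of genes of at least 10 CPM 66.3% were called in either. Sesn1, a Sestrin that restrains mTORC1, was at 131 ± 18.8 CPM in KO cells, against 42.3 ± 5.34 CPM in WT cells. Its log2 change was 1.62, that of the Castor family gene Castor2 1.53, and that of the low-level Rag GTPase gene Rragb -1.57.

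Enzymes that make or use the transported amino acids were also tested. Of 15 genes of glutamine, glutamate, proline and asparagine enzymes, 6 rose and 6 fell. Over all tested genes 27.8% were called in each direction, and 66.3% of genes of at least 10 CPM were called in either. Glul, which makes glutamine from glutamate, was at 231, 168 and 286 CPM in KO libraries, against 66.0, 58.2 and 70.6 CPM in WT libraries, all KO values being more than 2 times the highest WT value. The transaminase gene Gpt2 and the proline synthesis gene Pycr1 rose by 1.16 and 1.08 on the log2 scale. Of 13 genes of cystine and cysteine use, 5 rose and 4 fell, again beside 27.8% of all tested genes called in each direction. Cth, which makes cysteine from cystathionine, rose by 1.54, Cbs, the step before it, by 1.23, and Ggt5, a gamma-glutamyl transferase gene, by 4.50 on the log2 scale. Ggt5 was uneven over KO libraries, with 80, 65 and 199 counts in KO and 14 counts in WT libraries together. Its relative Ggt1 fell by 3.52 on the log2 scale, with 9 counts in KO and 101 in WT libraries.

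Of 13 tested genes of arginine and polyamine metabolism, 3 rose and 7 fell, and the median of their log2 changes was -0.68, where 27.8% of all tested genes were called in each direction. Odc1, which makes putrescine from ornithine, was at 104, 135 and 87.0 CPM in KO libraries, against 295, 291 and 270 CPM in WT libraries. The highest KO value was close to 0.5 of the lowest WT value, and Odc1 fell by 1.39 on the log2 scale (edgeR adjusted p = 5.86e-05). Agmat, an agmatine hydrolase gene, fell by 1.58, and Nos3, a nitric oxide synthase gene, rose by 1.55. Of 14 genes of branched-chain amino acid breakdown, 10 rose and none fell, with a median of 0.50, where 27.8% of all tested genes were called higher and 27.8% lower. The largest rises were those of Bckdha (1.93), Mccc1 (1.02) and the transaminase gene Bcat1 (0.97).

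Among regulators of these genes, Atf4 was at 393 ± 31.2 CPM in KO cells, against 386 ± 14.9 CPM in WT cells (SD, n = 3 each), with an edgeR adjusted p of 0.745. ATF4 protein is controlled mainly by translation, which these counts do not show. Trib3, Atf5 and Ddit3, which are known ATF4 targets, rose by 1.59, 0.98 and 0.59 on the log2 scale. Whether ATF4 had a part in these or other changes was not tested. Of the 9 genes in the list of regulators, 4 rose and 1 fell, where 27.8% of all tested genes were called in each direction. Eif2ak4, the gene of the kinase GCN2 that senses uncharged tRNA, was at a log2 change of 0.00 and Nfe2l2, the gene of the antioxidant factor NRF2, at -0.08, and neither passed the test. Myc fell by 1.05 (edgeR adjusted p = 0.00980).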

How the data were processed

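RNA was sequenced in 3 MNRR1 KO and 3 WT libraries of TKO cells. The authors deposited unnormalized counts, 1 whole number for each Ensembl gene and library. Per the labels' protocols, total RNA went through the NEBNext Ultra II RNA kit. The submitters' processing notes name Subread 1.5.2, STAR 2.5.2b, Trimmomatic 0.36, bcl2fastq and DESeq2, and the GRCm38 (mm10) build. No source used here gives the annotation release, the strand setting or the treatment of multi-mapped reads, so reads of overlapping or near-identical genes can be assigned to the wrong gene. Of 49315 genes, 49056 matched GENCODE M21 of GRCm38, which gave symbols, gene types, coordinates and exon lengths. Promoters came from RefSeq.

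Counts were fitted with edgeR 4.0.16 in R 4.3.3, with genotype as the only term. Settings were filterByExpr at a minimum count of 10, TMM, robust quasi-likelihood, BH over 16033 genes and calls at 0.05. The script was first run on simulated counts in which far fewer genes differed than were called here. That run therefore does not show how the scaling or the calls behave in these data. Levels per kb are TMM-scaled CPM over the length of all exons. Intervals are at 95% and cover the spread between libraries. The alternatives tried were other scalings, no filter, DESeq2 1.42.0, limma 3.58.1 voom, a replicate block, each library left out, and other gene lengths.

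Members, lists and tests were chosen with earlier results of these data known. All members were named by rule. Values per library were given for members called at 2-fold or more with at least 1 CPM, for the member with the highest level per kb of each class and for the heavy chains, and others were added after their values were seen. From other lists, up to 3 called genes of at least 1 CPM with the largest change were named. Marker genes, and genes outside these rules (Slc15a4, Mfsd12 and Ggt1), were named after their values were seen. Every gene of the other lists was matched by symbol or RefSeq synonym. Any regulator could be named.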

Additional observations from a re-analysis of the deposited data

How the results depend on the processing

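Of the 22 called members, 18 kept their call and direction under all 13 alternatives tried, and 4 (Slc7a1, Slc7a5, Slc7a6 and Slc7a6os) lost the call under at least 1. The number of members called higher was 12 to 14 and called lower 6 to 10 over all alternatives, against 13 and 9. When each library was left out in turn these counts ran from 12 to 14 and from 7 to 9, the median log2 change of the members from 0.16 to 0.23, and the number of all genes called from 7587 to 10002 (8925 with all libraries). With scaling by library totals the median of all genes moved by over 0.1, to 0.13 on the log2 scale, and that of the members to 0.34 from 0.22. The log2 change of Slc38a3 ran from -0.057 (without WT replicate 1, edgeR adjusted p = 0.764) to 0.18 when 1 library was left out, and the cause was not tested. The difference in the Slc7a11 share of light chains, KO minus WT, was 1.96 percentage points, 6.36 without division by length, 2.64 with the longest transcript and 1.83 to 2.11 with 1 library left out. With the longest transcript the KO level over the WT level was 2.06 for the acidic class, against 2.53 with all exons, and 0.779 for Slc43a3, Slc7a6os and Slc7a15 together, against 0.791. With the replicate number as a block, 13 members were called higher and 10 lower. Same-numbered KO and WT libraries did not deviate together from their group means, with correlations of -0.0590, 0.0513 and 0.0283, so the numbers were not taken to pair the libraries. For members with under 50 counts in each genotype, such as Slc7a7 and Slc43a1, depth limits the size of the change.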
